A study of Homo sapiens with 16 samples.

Results

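The 7 SHP2 miR1 tumours of this BT474 xenograft series fell into a pair of groups by the signal of 5 small noncoding RNAs, and this split is the subject here. The mean log2 signal of RNU4-1, RNU4-2, RPPH1, RMRP and SNORA65 was above 8 in tumours 1 to 4 (set A) and below 7.5 in tumours 5 to 7 (set B). These 7 tumours are part of 16 arrays, and the same thresholds placed 3 of the 6 CTRL miR tumours (1 to 3) in set A and the other 3 (4 to 6) in set B, with all 3 SHP2 miR2 tumours in set B. The labels give no batch, date or other difference within SHP2 miR1, so the sets are known from the measured values alone. Among the SHP2 miR1 tumours the lowest mean of the 5 RNAs in set A was 8.23 and the highest in set B was 7.14, and no array of the series lay between the thresholds.

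BT474 is a human HER2-positive breast cancer cell line. Cells of every group carried a lentiviral vector that expresses a microRNA hairpin under doxycycline. The hairpin was a control in CTRL miR and was directed against SHP2, the tyrosine phosphatase encoded by PTPN11, in SHP2 miR1 and SHP2 miR2. The cells were placed in a fat pad of the mammary gland of immunodeficient animals, and once tumours had developed all groups received doxycycline at 2 g per L in drinking water until day 30. Total RNA (100 ng) of each dissected tumour was measured on a human gene array, so the RNA held mouse host cells beside the human tumour cells. The mouse strain and age are not given in the labels, which also do not tie tumours to animals, and p-values measure only the spread between these tumours.

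RPPH1 is the RNA subunit of ribonuclease P, which trims the 5′ end of precursor tRNAs, and RMRP is the RNA subunit of the related ribonuclease MRP, which acts in ribosomal RNA processing. RNU4-1 and RNU4-2 encode U4, the small nuclear RNA (snRNA) that pairs with U6 in the spliceosome, and SNORA65 is an H/ACA small nucleolar RNA (snoRNA), a class that guides pseudouridylation of other RNAs. All are short, structured, abundant in nuclei or nucleoli, and lack the poly(A) tail of messenger RNAs. RNU4-1 and RNU4-2 are near-identical copies, so their signals on an array may not be separate measurements.

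The 5 RNAs chose the sets, and their values are given as a description. RPPH1 read 10.69, 10.42, 10.80 and 10.32 in set A tumours 1 to 4 and 9.06, 9.08 and 9.03 in set B tumours 5 to 7 (log2 signal). All 4 set A tumours lay more than 1 log2 unit above the set B tumours, and the means were 10.56 ± 0.22 (SD, n = 4) and 9.06 ± 0.02 (SD, n = 3). RMRP read 9.997, 10.04, 10.01 and 9.95 against 8.995, 9.16 and 9.01, a difference of 0.94. Its spread within either set of SHP2 miR1 tumours was below 0.10 (SD 0.04 and 0.09), and the sets did not overlap. SNORA65 read 8.54, 8.62, 8.24 and 8.64 against 7.29, 7.56 and 7.68. RNU4-1 read 7.42, 7.59, 7.37 and 7.64 against 6.23, 6.20 and 6.31. RNU4-2, the dimmest of the 5, read 5.30, 4.96, 4.74 and 4.85 against 2.93, 3.68 and 3.48, which gave the largest difference of any named gene at 1.60. The CTRL miR tumours, split by the same thresholds, differed by a similar amount: 1.51 for RPPH1, 0.82 for RMRP, 0.95 for SNORA65, 1.48 for RNU4-1 and 1.84 for RNU4-2.

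**Figure D1:**
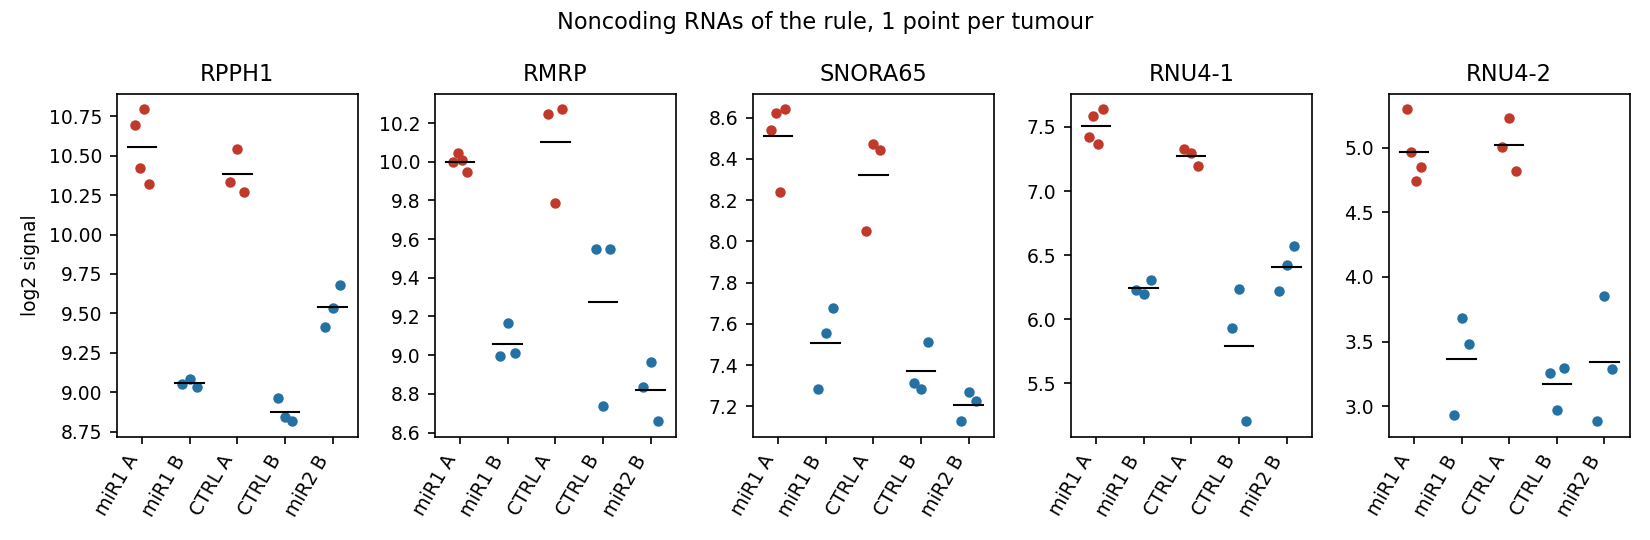
Log2 signal (vertical axes, each with its own range) of the 5 noncoding RNAs that define the sets, with 1 point per tumour, a black line at the mean, red for set A and blue for set B. In the SHP2 miR1 tumours RPPH1 averaged 10.56 in set A and 9.06 in set B, and in each panel every set A point lies above every set B point.

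SHP2 miR1 tumours correlated more closely within a set than between sets over all 28869 transcript clusters, as a description with no test. Pearson's r was 0.991 to 0.994 between set A tumours, 0.994 to 0.995 between set B tumours and 0.987 to 0.989 between the sets. The arrays also differed in the width of their signal distribution. The lower quartile of an array was 3.72 to 3.82 in set A against 3.85 to 3.89 in set B, whereas the upper quartile was 6.92 to 7.0008 and 6.84 to 6.87. Set A arrays were thus lower at the bottom and higher at the top, with medians of 5.21 to 5.27 against 5.30 to 5.32. Marker levels fitted the labelled cell line in both sets. ERBB2, the amplified receptor gene of BT474, read 11.22 to 11.32 in set A against 10.91 to 11.02 in set B, and the luminal keratin KRT18 averaged 11.73 and 11.66. The CTRL miR tumours were not uniform. IRS4, an adaptor of insulin signalling, read 7.14 to 8.29 in CTRL miR tumours 1, 3, 4 and 6, but 3.16 in tumour 2 and 3.77 in tumour 5, beside 3.11 to 3.91 in the 7 SHP2 miR1 tumours. Each set therefore held 2 controls with high IRS4 and 1 with low IRS4.

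Across 18377 genes, 2885 (15.7%) were higher in every set A tumour than in any set B tumour of SHP2 miR1, and 2457 (13.4%) were lower in every one. Since the sets were chosen on these arrays, no test applies to these counts. Which direction was more frequent depended on 1 tumour: without tumour 3 the counts were 3289 and 3419. Most differences were small. The median over all genes was -0.02, the SD 0.23, and the 5th and 95th percentiles were -0.36 and 0.39. By at least 0.5 and without overlap, 350 genes were higher in set A and 226 in set B. A difference of at least 1 without overlap was seen for 5 genes higher in set A (0.0272%) and for 0 genes higher in set B (0.0%). The 5 were RNU4-2 at 1.60, RPPH1 at 1.5, RNU4-1 at 1.26, TCAF1 at 1.08 and SNORA65 at 1.0045, so 4 of them belong to the RNAs that defined the sets.

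Of the 15 genes highest in set A, 9 were small structured RNAs. Beyond those of the rule they were RNU11, the U11 snRNA of the minor spliceosome, with a difference of 0.98, SNORD38B at 0.97, the variant U1 gene RNVU1-15 at 0.93 and SNORD34 at 0.81. RNU11 read 7.25, 6.82, 6.91 and 6.89 in set A and 5.90, 5.89 and 6.17 in set B. The 6 protein-coding genes were TCAF1, PPP1R9B at 0.88, TMEM229B at 0.86, PIEZO1 at 0.85, the histone H4 gene H4C2 at 0.84 and BIVM at 0.82. PPP1R9B, which encodes the actin and phosphatase scaffold spinophilin, read 8.28, 8.22, 8.27 and 8.18 against 7.38, 7.34 and 7.37, with a SD of at most 0.05 in either set. PIEZO1, a mechanically gated ion channel, averaged 8.08 ± 0.10 (SD, n = 4) against 7.23 ± 0.08 (SD, n = 3). Of these 15 genes, 14 were also higher in set A by their means in the CTRL miR tumours, and 10 of them did not overlap between the control sets. The 5 RNAs of the rule are part of both counts. They also split the controls, so their agreement was built into the split. TCAF1 was the exception and is described further on.

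The 15 genes highest in set B held 10 protein-coding genes and 1 snoRNA, and all 15 were higher in set B by their means in the CTRL miR tumours too. DOC2B, a calcium sensor of vesicle exocytosis, read 4.75, 4.70, 4.43 and 4.79 in set A and 5.69, 5.60 and 5.57 in set B, a difference of -0.95. LINC01951 had the same difference (-0.95), and the pseudogene HSP90AA6P (-0.87), SNORA70G (-0.85) and HDDC2 (-0.85) came next. HDDC2 was the brightest of the 15, with 6.88 to 7.27 in set A against 7.81 to 8.04 in set B. The group contained LCE2D (-0.81), LCE2A (-0.80) and SPRR1A (-0.81), proteins of the cornified envelope of skin, the defensin DEFB124 (-0.85), the chemokine CCL3 (-0.81), the hormone gene GAST (-0.80), the taste channel TRPM5 (-0.77) and the receptor OXER1 (-0.80). SPATA41 (-0.81) and the microRNA precursor MIR134 (-0.81) completed it. Of these 15 genes, 13 had a mean signal below the average over all genes. CCL3 read 3.64 to 4.06 in set A against 4.38 to 4.88 in set B.

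The promoters of the first 3 protein-coding genes of either direction with an entry in the RefSeq table (GRCh38.p14) are printed because the set difference varied with promoter base composition over all genes, as given further on. Each line holds the 120 bases before the annotated start, 5′ to 3′ on the gene's strand, with every CG in capitals.
TCAF1 promoter (chr7:143885371-143885490, minus strand): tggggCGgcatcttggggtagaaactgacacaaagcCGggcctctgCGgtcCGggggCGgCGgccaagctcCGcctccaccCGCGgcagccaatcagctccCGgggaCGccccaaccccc
PPP1R9B promoter (chr17:50150678-50150797, minus strand): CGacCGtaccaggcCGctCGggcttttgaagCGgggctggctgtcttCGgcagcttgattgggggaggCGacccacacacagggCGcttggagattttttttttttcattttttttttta
TMEM229B promoter (chr14:67533851-67533970, minus strand): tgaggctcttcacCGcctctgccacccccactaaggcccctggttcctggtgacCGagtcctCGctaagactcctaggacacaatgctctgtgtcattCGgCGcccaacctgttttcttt
LCE2D promoter (chr1:152663260-152663379, plus strand): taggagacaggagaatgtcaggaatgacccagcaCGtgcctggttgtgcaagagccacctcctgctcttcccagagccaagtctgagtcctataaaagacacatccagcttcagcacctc
SPRR1A promoter (chr1:152983961-152984080, plus strand): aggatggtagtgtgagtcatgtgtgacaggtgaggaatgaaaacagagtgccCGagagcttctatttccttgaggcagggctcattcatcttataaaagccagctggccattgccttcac
CCL3 promoter (chr17:36090144-36090263, minus strand): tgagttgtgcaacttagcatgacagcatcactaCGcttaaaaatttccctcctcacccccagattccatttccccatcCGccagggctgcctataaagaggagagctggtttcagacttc
The stretches of TCAF1, PPP1R9B and TMEM229B, higher in set A, held 11, 8 and 5 CG, and those of LCE2D, SPRR1A and CCL3, higher in set B, held 1, 1 and 2. Over the 27305 promoters of the table the median was 6 in these 120 bases, and 85.9% held at least 1; the motif searched, CG, reads the same on both strands. These 6 promoters are examples only: among the 15 genes highest in either set, the median promoter GC was 61.0% for set A (6 genes with an entry) and 56.0% for set B (7 genes). By GC content, read over a longer stretch than the 120 bases, the 6 printed promoters overlapped between the directions. It was 58.0% for TCAF1 and 64.0% for PPP1R9B, against 56.0% for LCE2D, 49.6% for SPRR1A and 47.2% for CCL3. TMEM229B, higher in set A, lay below LCE2D and in the lowest GC quintile of protein-coding genes (22.8% to 50.8%). None of the 6 lay in the highest quintile (72.8% to 96.4%). No entry was matched for the 5 RNAs of the rule.

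The set difference ran in parallel in the CTRL miR tumours, which share no array with the SHP2 miR1 tumours. Among controls 2160 genes (11.8%) were higher in every set A tumour and 2155 (11.7%) in every set B tumour. Of the 2885 genes higher in set A of SHP2 miR1, 2769 (96.0%) had the same direction of means in the controls, 1416 (49.1%) were also without overlap there in that direction, and 2 had the opposite order without overlap. Those 1416 were 65.6% of the control genes higher in set A. Of the 2457 genes higher in set B, 2305 (93.8%) had the same direction, 935 (38.1% of them and 43.4% of the control genes higher in set B) did not overlap either, and 3 had the opposite order. Over the 18377 genes the difference of means in SHP2 miR1 and that in CTRL miR correlated with Pearson's r of 0.78 and Spearman's rho of 0.77. This is a correlation across genes, which are not independent replicates, and both differences rest on the same 5 RNAs for the split. Without those 5 RNAs r was 0.78. It was 0.73 with the 4 IRS4-high controls alone, 0.66 with control tumours 2 and 5 alone, 0.78 over the 9559 clusters with no gene symbol or several, and 0.74 after quantile normalization of the arrays.

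**Figure D2:**
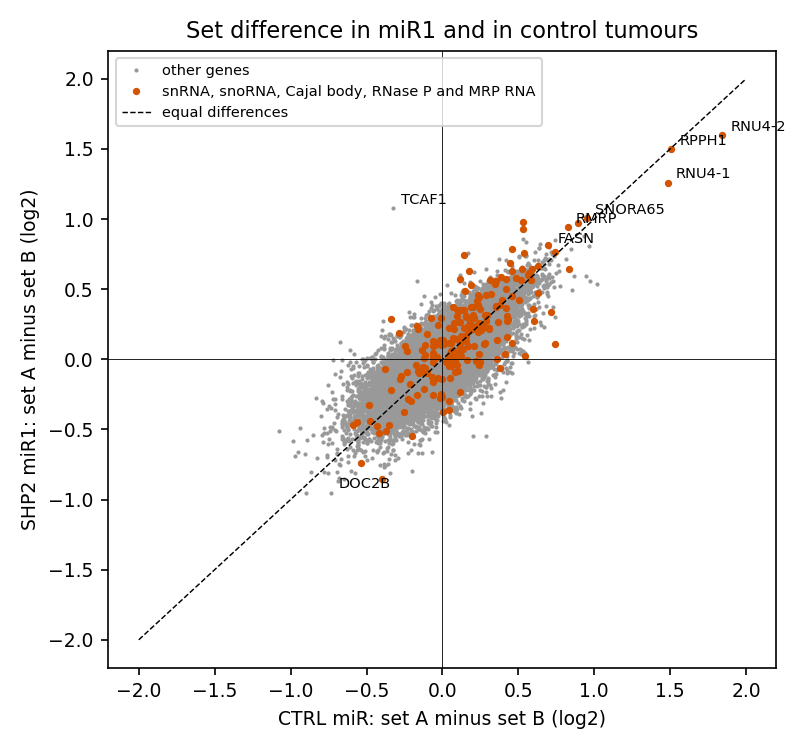
Difference of means, set A minus set B, for each of 18377 genes in the CTRL miR tumours (horizontal axis, log2) and in the SHP2 miR1 tumours (vertical axis, log2), with small structured RNAs in orange and the line of equal differences dashed. The points follow the line (r = 0.78), RNU4-2 and RPPH1 lie at its upper end, and TCAF1 stands off it at 1.08 in SHP2 miR1 and -0.33 in CTRL miR.

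Among small structured RNAs the share higher in set A exceeded that of all genes also with the 5 RNAs of the rule left out. Of the 18 other snRNAs, 8 were higher in every set A tumour and 0 in every set B tumour, against 15.7% and 13.4% of all genes, with a median difference of 0.31. RNU5B-1, a U5 snRNA, spanned 4.76 to 5.47 in set A against 4.34 to 4.46 in set B, and RNU4ATAC, the U4 of the minor spliceosome, spanned 5.58 to 5.81 and 4.85 to 5.37. Among the 60 H/ACA snoRNAs other than SNORA65, 19 were higher in set A and 4 in set B, with a median of 0.13. SNORA71C spanned 7.495 to 7.78 and 6.71 to 7.05. Among 112 C/D snoRNAs, which guide ribose methylation, 30 were higher in set A and 10 in set B. Their members ran in both directions: SNORD116-23 differed by 0.79 and SNORD79 by -0.74, the latter at 7.28 to 7.90 in set A against 8.25 to 8.40 in set B. Of 16 Cajal body RNAs, which guide modification of snRNAs, 6 were higher in set A and 1 in set B, with SCARNA12 at 0.68 and SCARNA9 at -0.47. The direction of these 4 lists held after quantile normalization and cyclic loess, where 10 of the 18 snRNAs were higher in set A.

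None of the 5 RNA polymerase III transcripts measured beside RPPH1 and RMRP was apart between the sets on the deposited values. The vault RNAs VTRNA1-1, VTRNA1-2 and VTRNA1-3 and the Y RNA RNY1 overlapped, with differences of 0.11, 0.16, 0.13 and 0.09, and so did RNU6ATAC, the U6 of the minor spliceosome, at -0.01. After quantile normalization 1 of these 5 was higher in set A. The proteins of ribonuclease P and MRP showed no common direction. Of 10 measured, RPP25 was higher in set A (0.25), POP5 was higher in set B (-0.27), and the other 8 overlapped. The same held for the proteins of the snoRNA particles, of which GAR1 was higher in set B (-0.28) and 1 of 11 was higher in set A. Among 26 polymerase III subunits and factors 10 (38.5%) were higher in set A and 4 (15.4%) in set B, against 15.7% and 13.4% of all genes. BRF1, a subunit of the initiation factor TFIIIB, spanned 7.30 to 7.44 against 6.79 to 6.94. The median of that list was 0.02 on the deposited values and -0.07 after quantile normalization. After that scaling 8 (30.8%) were higher in set A and 7 (26.9%) in set B, against 14.3% and 13.0% of all genes. Members were thus apart in both directions.

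MicroRNA precursors lay the other way on the deposited values. Of 189 measured, 43 (22.8%) were higher in set B and 8 (4.23%) in set A, and 164 of the 189 were matched to RefSeq miRNA entries. The mature sequences of the 5 precursors with the largest difference are shown, 5′ to 3′ with the seed (bases 2 to 8) in capitals, since the seed decides which messages a miRNA pairs with. The array measures the precursor's locus and cannot tell the mature arms apart.
hsa-miR-134-5p: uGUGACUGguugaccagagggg
hsa-miR-134-3p: cCUGUGGGccaccuagucaccaa
hsa-miR-147a: gUGUGUGGaaaugcuucugc
hsa-miR-181c-5p: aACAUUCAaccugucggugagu
hsa-miR-181c-3p: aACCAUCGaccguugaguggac
hsa-miR-197-5p: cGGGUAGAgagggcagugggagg
hsa-miR-197-3p: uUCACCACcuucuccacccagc
hsa-let-7f-5p: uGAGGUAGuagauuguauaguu
No seed was shared among these 8 mature miRNAs. MIR134 (chr14:101054687-101054759) read 4.76, 5.25, 4.70 and 5.13 in set A and 5.91, 5.74 and 5.65 in set B. MIR147A spanned 5.23 to 5.31 against 5.87 to 6.05, MIR181C 5.80 to 6.37 against 6.46 to 6.86, and MIR197 5.78 to 6.27 against 6.64 to 6.81. MIRLET7F2 had the opposite order, with 3.54 to 3.98 in set A against 3.01 to 3.23 in set B. After quantile normalization 33 precursors (17.5%) were higher in set B and 13 (6.88%) in set A, against 13.0% and 14.3% of all genes. The median difference moved from -0.08 to -0.04.

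Protein-coding groups of the tumour cell were divided. Of 20 genes of cholesterol and fatty acid synthesis, 11 (55.0%) were higher in set A and 1 in set B, against 15.7% and 13.4% of all genes. FASN, the fatty acid synthase, read 10.18, 10.13, 10.15 and 10.16 in set A and 9.43, 9.37 and 9.27 in set B. The sets were apart by 0.80 with little spread inside either, and the CTRL miR tumours differed by 0.70 (9.75 to 10.27 in set A, 9.11 to 9.57 in set B). SREBF1, the transcription factor that drives FASN, differed by 0.65, and the mevalonate pathway genes MVD and MVK by 0.62 and 0.53. HMGCS1 had the opposite sign (-0.28). Of 18 genes of the ERBB family and the 17q12 amplicon 8 (44.4%) were higher in set A and 0 in set B. ORMDL3 differed by 0.51, GRB7 by 0.49, PGAP3 by 0.46, STARD3 by 0.43 and ERBB2 by 0.29. PPP1R1B had the opposite sign (-0.40). Among the CTRL miR tumours 0 of the 18 were higher in set A without overlap and 1 in set B, with a median difference of 0.17. Of 21 luminal genes 8 were higher in set A and 1 (EPCAM, -0.33) in set B, with SPDEF, an epithelial ETS factor, at 9.43 to 9.68 against 8.78 to 8.95. These directions were the same after quantile normalization (10, 8 and 8 genes higher in set A).

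Replication-dependent histone genes have messages that end in a stem-loop without a poly(A) tail. Of 55 measured, 18 (32.7%) were higher in set A and 4 (7.27%) in set B, against 15.7% and 13.4% of all genes. H4C2 read 7.12, 7.07, 7.30 and 7.13 against 6.44, 6.30 and 6.22. H2AC21 had the opposite order (9.14 to 9.40 against 9.69 to 9.72), and many histone genes are near-identical copies. In the CTRL miR tumours 3 of the 55 were higher in set A and 5 in set B, and the median was 0.01 against 0.13 in SHP2 miR1; the difference between the groups was not tested for the list. Sm and LSm proteins, which coat the snRNAs, were higher in set A for 9 of 27 (33.3%) and in set B for 4 (14.8%). LSM7 was at 0.75 and SNRPE at -0.65. Cytosolic ribosomal proteins were split evenly, with 10 of 65 (15.4%) in either direction, near the shares of all genes. Respiratory chain genes were higher in set A for 18 of 68 (26.5%) and in set B for 8 (11.8%). For mitochondrial ribosomal proteins the balance turned with the scaling. On the deposited values 16 of 73 (21.9%) were higher in set A and 5 (6.85%) in set B. After quantile normalization these were 9 (12.3%) and 13 (17.8%), against 14.3% and 13.0% of all genes. Groups tied to signalling or growth were mixed. Ribosome biogenesis and MYC growth targets were higher in set A for 7 of 30 (23.3%) and in set B for 1, with a median of 0.03 that was -0.02 after quantile normalization. For other such groups the counts were low: 0 of 18 ERK output genes were higher in set A and 1 (SPRED3) in set B, 3 and 1 of 35 for mitosis and DNA replication, and 0 of 23 in either direction for hypoxia and glycolysis. The ERK output genes had 5 of 18 higher in set A among the CTRL miR tumours. After quantile normalization 6 of the 35 mitosis genes (17.1%) were higher in set B.

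**Figure D3:**
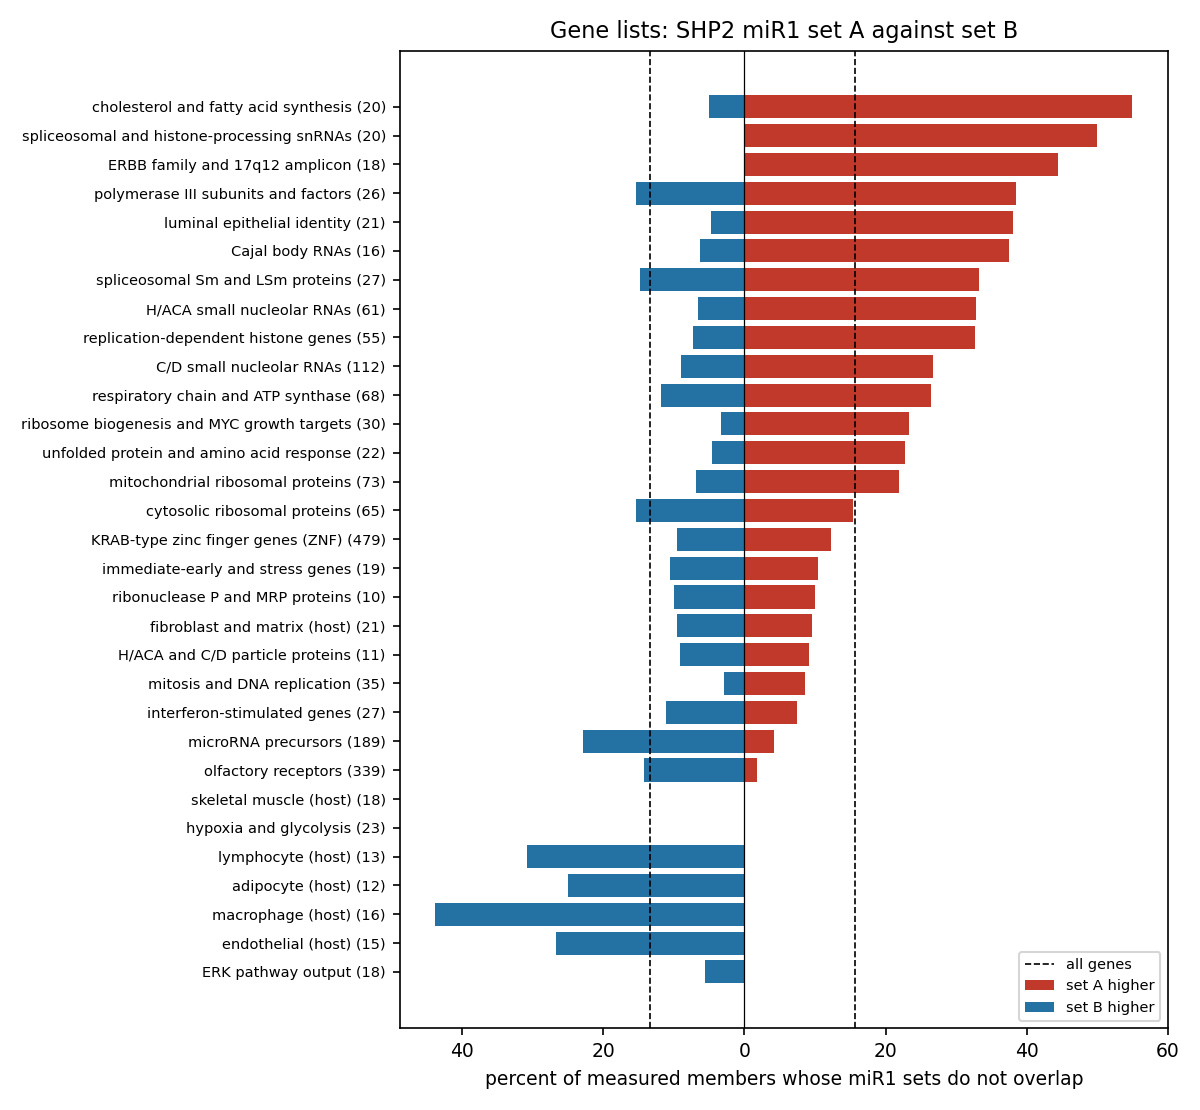
Percent of the measured members of each gene list (number in brackets) whose set A and set B tumours of SHP2 miR1 did not overlap, to the right where set A was higher and to the left where set B was higher, on the deposited values. Dashed lines mark all genes at 15.7% and 13.4%; lipid synthesis genes (55.0%) and snRNAs (10 of 20, RNU4-1 and RNU4-2 included) reach farthest to the right and macrophage markers (43.8%) to the left.

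Markers of mouse host cell types leaned toward set B on the deposited values. The human probes see mouse transcripts only where the sequences are similar, and in bulk RNA fewer cells of a type and less RNA per cell cannot be told apart. Of 16 macrophage genes 7 (43.8%) were higher in set B and 0 in set A. The mean of the list was 4.27 to 4.36 in set A against 4.44 to 4.54 in set B, and C1QA, a complement gene of macrophages, spanned 3.72 to 4.41 and 4.48 to 4.58. For lymphocyte genes the count was 4 of 13 with list means of 4.24 to 4.44 and 4.53 to 4.67, for endothelial genes 4 of 15 with 4.48 to 4.62 and 4.66 to 4.73, and for adipocyte genes 3 of 12 with 4.42 to 4.56 and 4.62 to 4.71. Blood cell genes had 2 of 8, fibroblast genes 2 of 21 in either direction and skeletal muscle genes 0 of 18. The means of the macrophage, lymphocyte, endothelial and adipocyte lists lay below the median signal of every SHP2 miR1 array. After quantile normalization the counts were 3 (18.8%), 2 (15.4%), 2 (13.3%) and 2 (16.7%), near the 13.0% of all genes higher in set B on that scale, and 1 of 8 blood cell genes was higher in set B with 2 in set A. Olfactory receptors, of which tumour tissue expresses few, were higher in set B for 48 of 339 (14.2%), near the 13.4% of all genes, and in set A for 6 (1.77%). After quantile normalization the shares were 7.37% and 2.95%. Whether host cells take part in the set difference was not tested.

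The direction of the set difference varied with a gene's mean signal. In quintiles of the genes from low to high signal, 2.29%, 3.29%, 15.7%, 31.3% and 26.0% were higher in set A without overlap, and 15%, 21.8%, 11.6%, 5.39% and 13.0% were higher in set B. After quantile normalization, which gives every array the same distribution, the lowest quintile had 6.07% and 5.71% and the highest 21.6% and 22.3%. Among protein-coding genes, 13741 of 16865 (81.5%) had a RefSeq promoter. In quintiles of promoter GC content (22.8% to 50.8% in the lowest, 72.8% to 96.4% in the highest), 6.71%, 13.7%, 16%, 20.7% and 27.1% were higher in set A and 15%, 14.8%, 13.2%, 10.8% and 8.22% in set B. After quantile normalization the lowest quintile of GC still had 7.61% higher in set A and 10.5% in set B, and the highest 22.5% and 9.82%. Among genes of the fourth quintile of signal, 22.5% of those with the lowest promoter GC and 45.0% of those with the highest were higher in set A; among genes of the lowest quintile of signal these shares were 2.58% and 1.84%. Spearman's rho between promoter GC and the set difference was 0.19 in SHP2 miR1 and 0.22 in CTRL miR, across genes and with no test. Promoter GC was read here as a property of the locus, and the GC content of the probes was not analysed.

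**Figure D4:**
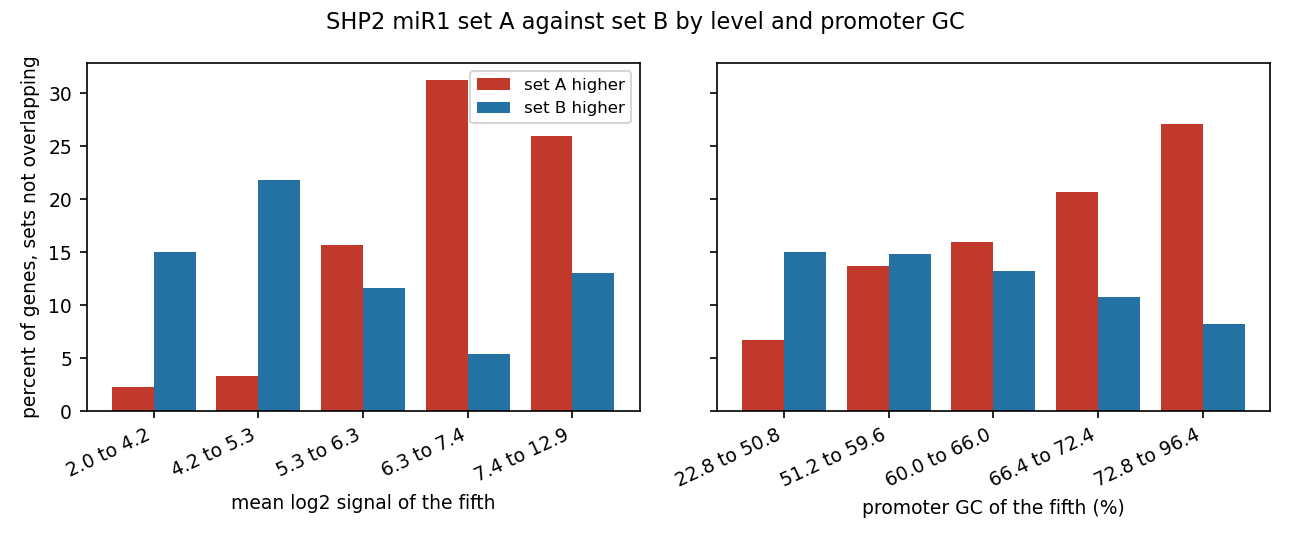
Percent of genes whose set A and set B tumours of SHP2 miR1 did not overlap (vertical axis), in quintiles of mean log2 signal (left) and of promoter GC content (right, protein-coding genes), on the deposited values. Set A is higher for 31.3% of genes in the fourth quintile of signal and for 27.1% in the highest GC quintile, against 2.29% and 6.71% in the lowest quintiles.

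SHP2 miR1 and CTRL miR tumours were compared inside either set, where they have like levels of the 5 RNAs. Most controls of either set had high IRS4 and no SHP2 miR1 tumour did. The hairpin and the state of the controls are therefore not fully separated in these comparisons. PTPN11 read 6.59, 6.82, 7.18 and 6.90 in SHP2 miR1 of set A against 8.61, 8.23 and 8.25 in CTRL miR of set A. In set B it read 6.97, 7.03 and 7.002 against 8.49, 8.28 and 8.53. Every SHP2 miR1 tumour lay below every control in its set. PTPN11 fell in both sets, with a log2 change of -1.49 ± 0.13 (SE) in set A and -1.43 ± 0.14 (SE) in set B, with Benjamini-Hochberg adjusted p of 4.97e-05 and 0.000236 (limma over all genes). That leaves 35.5% of the control signal in set A (95% interval 29.4% to 43.0%) and 37.0% in set B (30.2% to 45.4%). Exact permutation tests, with the smaller directional p doubled, gave p = 0.0571 over 35 arrangements in set A and p = 0.1 over 20 in set B. These are the smallest p that a test of this form allows at these sizes. The difference between the sets in the PTPN11 change was -0.06 (95% interval -0.46 to 0.34).

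Beside PTPN11, few genes passed the test within a set. In set A 15 genes were called (adjusted p below 0.05, 0.0816% of genes), 6 that rose (0.0326%) and 9 that fell (0.049%). In set B 3 genes were called (0.0163%; 0.0109% rose and 0.00544% fell), of which PTPN11 fell and GLYATL2 and TUBAL3 rose. After quantile normalization set B had 13 calls (7 that rose, 6 that fell) and after cyclic loess 7 (3 and 4). GLYATL2, an enzyme that joins fatty acyl groups to glycine, read 5.79, 5.80, 5.50 and 5.13 against 3.94, 3.81 and 3.81 in set A. In set B it read 6.10, 6.26 and 5.20 against 3.93, 4.19 and 3.88, so the groups did not overlap in either set. It rose by 1.70 ± 0.23 (SE) in set A and 1.85 ± 0.25 (SE) in set B (limma adjusted p = 0.00667 and 0.0103). TUBAL3, an alpha tubulin relative, rose by 0.76 and 0.69. The other rises in set A were PRELP at 0.81, a matrix proteoglycan, the receptor tyrosine kinase gene ERBB4 at 0.60, the amino acid transporter gene SLC38A4 at 0.56 and ALDH2 at 0.54. Many calls in set A rested on the full set of tumours: PRELP, ERBB4, ALDH2, DNAH11, MAP3K5 and PRKAA2 passed in 1 of 7 fits that left out 1 tumour, and SLC38A4 and TUSC3 in 2 of 7.

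Genes that fell in set A beside PTPN11 were ABCC4, an exporter of cyclic nucleotides and drugs (-1.54), TUSC3, of the oligosaccharyltransferase (-1.27), PRKAA2, a catalytic subunit of AMPK (-1.25), the ferric reductase gene CYBRD1 (-1.04) and PPP1R1B, a phosphatase inhibitor gene of the 17q12 region (-0.92). The kinase gene MAP3K5 (-0.88), the ERK-induced ETS factor gene ETV4 (-0.83) and the dynein gene DNAH11 (-0.63) fell as well. All 15 had the same sign in set B, where 13 did not overlap with the controls, 13 had an unadjusted p below 0.05 and 3 were called. The other 12 values in set B included ABCC4 at -1.31 (limma adjusted p = 0.0739), TUSC3 at -1.22 (0.0596), ERBB4 at 0.67 (0.0589) and ETV4 at -0.38 (0.355). PRELP and SLC38A4 were 0.24 and 0.09 in set B. Several of these genes differed among the controls in the way IRS4 does: ABCC4 read 6.30 in control tumour 2 and 6.24 in control tumour 5, against 6.86 to 7.14 in the other 4 controls. With control tumours 2 and 5 as the only controls 5 genes passed in set A and 4 in set B. Without control tumour 2 the count in set A was 1394, without control tumours 1 or 3 it was 1 and 4, and without SHP2 miR1 tumours 1 to 4 it was 7, 7, 8 and 9. Without control tumour 5 the count in set B was 763, and without control tumour 4 or 6 or SHP2 miR1 tumour 5 or 6 it was 1. GLYATL2 and TUBAL3 in set B passed in 2 and 1 of 6 fits that left out 1 tumour, and PTPN11 passed in all 13 over both sets. Across the 18377 genes the SHP2 miR1 change in set A and that in set B, which share no array, correlated with r of 0.80. With control tumours 2 and 5 only, r was 0.35.

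**Figure D5:**
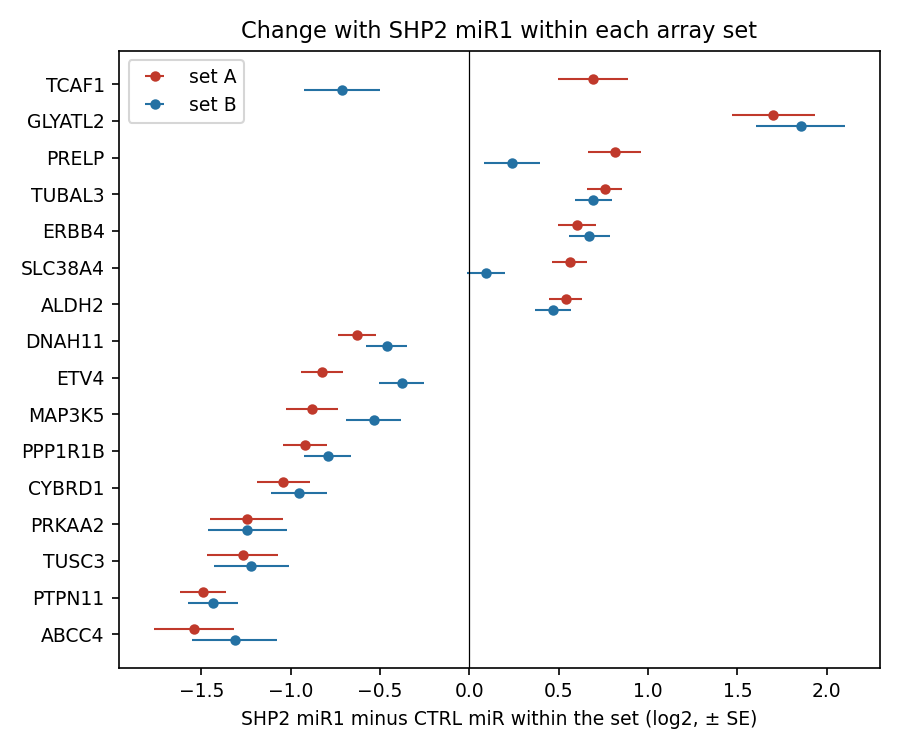
Change with SHP2 miR1 against CTRL miR (horizontal axis, log2, ± SE from limma) within set A (red) and set B (blue) for the 15 genes called in either set and for TCAF1. PTPN11 lies at -1.49 and -1.43 and GLYATL2 at 1.70 and 1.85, while TCAF1 lies at 0.69 in set A and -0.71 in set B.

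No gene passed the test of the difference between sets in the SHP2 miR1 change (0 of 18377, 0.0%, limma with Benjamini-Hochberg). An unadjusted limma p below 0.05 was found for 205 genes (1.12%), less than the share of 0.05 that no difference would give. The absence of calls does not show that the sets respond alike. The smallest unadjusted p was that of TCAF1, which encodes a partner of the TRPM8 cation channel. TCAF1 (chr7:143851375-143902176) read 5.36, 6.05, 6.28 and 6.15 in SHP2 miR1 of set A and 4.72, 5.05 and 4.87 in SHP2 miR1 of set B. Its controls were 5.48, 4.97 and 5.37 in set A and 5.25, 5.84 and 5.70 in set B, so the sets overlap among controls and lean the other way. The change was 0.69 ± 0.20 (SE) in set A and -0.71 ± 0.21 (SE) in set B, a difference of 1.41 ± 0.29 (SE) with a limma adjusted p of 1. Over 25 fits, the reported one included, the difference was 0.87 to 1.96 and the adjusted p never fell below 0.0767. The other TCAF1 cluster of the array read 3.62 to 3.93 in SHP2 miR1 of set A and 3.64 to 3.94 in set B, and does not show the difference. The other clusters of PIEZO1 (0.43), DOC2B (-0.48) and RNVU1-15 (0.94) had the same direction as those above.

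SHP2 miR2 was measured in set B only, so a comparison of the hairpins within 1 set uses SHP2 miR1 tumours 5 to 7. There 1730 genes passed (9.41%), 1307 higher in SHP2 miR1 (7.11%) and 423 lower (2.3%) at a limma adjusted p below 0.05. The split was 808 and 523 after quantile normalization and 621 and 513 after cyclic loess. Leaving out SHP2 miR1 tumour 5, 6 or 7 gave 966, 674 or 793 genes, and leaving out SHP2 miR2 tumour 1, 2 or 3 gave 905, 3604 or 621. SLC6A14, an amino acid transporter gene, was higher by 4.41 ± 0.15 (SE), and PGR, the progesterone receptor gene, by 3.45 ± 0.21 (SE). PGR read 9.28, 9.26 and 9.23 in SHP2 miR1 of set B against 6.51, 5.26 and 5.65 in SHP2 miR2. GREB1, a hormone-induced gene, was higher by 3.25, TCN1 by 3.40, CYP2B7P by 3.08 and MUCL1 by 2.67. The largest negative differences were MME (-3.89), CBLN2 (-3.23), LINC00417 (-2.73), PPFIA2 (-2.52), ANKRD20A11P (-2.40) and CDH8 (-2.30). MYC was higher by 2.05 ± 0.20 (SE), with 6.96, 7.18 and 7.28 against 4.73, 5.28 and 5.27. PTPN11 itself was 0.54 higher with SHP2 miR1 (95% interval 0.24 to 0.83, adjusted p = 0.0229).

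Set against the same SHP2 miR2 tumours, SHP2 miR1 tumours 1 to 4 gave 7312 genes (39.8%), 3903 higher (21.2%) and 3409 lower (18.6%). The excess of higher genes turned with the scaling, to 2356 higher and 2436 lower after quantile normalization and 2235 and 2276 after cyclic loess. These arrays also differ in set, so set and hairpin cannot be told apart there. With 1 of the 4 set A tumours left out, which leaves 3 against 3 as in set B, the count was 5565 to 6905, and without SHP2 miR2 tumour 3 it was 4342. The comparisons share the SHP2 miR2 arrays, and the values are given side by side. Genes with large differences within set B had like values across sets: SLC6A14 4.41 and 4.19, PGR 3.45 and 3.51, MYC 2.05 and 2.20, and MME -3.89 and -4.14. Of 35 mitosis and replication genes 29 were higher in SHP2 miR1 within set B and 32 across sets, and of 30 ribosome biogenesis and MYC target genes 24 and 29. After quantile normalization these were 22 and 24, and 16 and 21. Over all genes the share higher in SHP2 miR1 was 7.11% within set B and 21.2% across sets. Lists that differed between the SHP2 miR1 sets are given as a description, since that difference enters the counts across sets. For cholesterol and fatty acid synthesis 1 of 20 was higher within set B and 12 across sets, and for histone genes 6 and 29 of 55. Macrophage genes were lower in SHP2 miR1 for 1 of 16 within set B and 12 across sets, and lymphocyte genes for 0 and 10 of 13. Of all genes 2.3% were lower within set B and 18.6% across sets. The counts across sets for cholesterol and fatty acid synthesis, macrophage and lymphocyte genes were 7, 5 and 4 after quantile normalization and 5, 4 and 4 after cyclic loess.

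FASN differed little from SHP2 miR2 within set B and more across sets. It read 9.43, 9.37 and 9.27 in SHP2 miR1 of set B and 9.14, 9.27 and 9.18 in SHP2 miR2, a difference of 0.16 (95% interval -0.11 to 0.44) that did not pass. With the set A tumours the difference was 0.96. FASN is named here for its difference between the sets, and SHP2 miR2 lies in set B, so no test is read from that value. The RNAs that defined the sets are given as a description, and no test is read for them. RMRP was higher in SHP2 miR1 than in SHP2 miR2 by 0.24 within set B and by 1.18 across sets. SNORA65 was higher by 0.30 and 1.30. RPPH1 was lower in SHP2 miR1 within set B, at -0.49, and higher by 1.01 across sets. DUSP6, a phosphatase gene induced by ERK signalling, was higher in SHP2 miR1 by 1.06 within set B and 1.33 across sets, and passed in both.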

How the data were processed

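Each of the 16 tumours was hybridised to 1 Affymetrix human gene array. The deposited values are log2 signals per transcript cluster, made by the authors with R 2.10 and oligo 1.8 per the submitters' processing notes; the sources used here do not give the background correction or the normalization. Of 28869 clusters 19310 carried 1 gene symbol, 1752 several and 7807 none. For the 685 genes with several clusters the brightest on average was kept, which left 18377 genes, 18349 of them matched to RefSeq by gene ID, with no filter on low signal. The members and gene lists were chosen with earlier results of these data known.

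Set A against set B was described by values, ranges and counts of genes whose tumours did not overlap. Tests used limma 3.58.1 in R 4.3.3 on 5 group means (SHP2 miR1 and CTRL miR by set, and SHP2 miR2) over 16 arrays, with 5 contrasts, Benjamini-Hochberg adjustment over all genes within each contrast, and a threshold of 0.05. The fit was checked on simulated data. Named genes were the 5 RNAs of the rule, the 15 highest in either set without overlap, the genes called within a set, the largest differences from SHP2 miR2, and members of the gene lists. The number of arrays limits the precision. Alternatives covered scaling, filtering, the replicate block, the limma prior, array weights, the controls used and each tumour left out.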

Additional observations from a re-analysis of the deposited data

Results flagged for a closer look

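LCE2A, a skin cornified envelope gene, had 1 SHP2 miR1 tumour of set A apart from the other 3, at 6.56 against 6.74 to 6.77 on the log2 scale. It was the only lone value among 53 groups examined; by chance about 1 in 20 groups has one, so 1 is no more than chance gives.

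For 5 genes the sets did not overlap in SHP2 miR1 and did not overlap in the opposite order in CTRL miR. Set A minus set B was -0.19 in SHP2 miR1 and 0.12 in CTRL miR for BMP1, and -0.11 and 0.14 for LRFN5. It was -0.14 and 0.21 for MRPL32, 0.20 and -0.26 for NKD2, and 0.17 and -0.08 for TSPAN31. The limma test of the difference gave unadjusted p of 0.0560, 0.113, 0.0161, 0.0387 and 0.0696 in that order, and a Benjamini-Hochberg adjusted p of 1 for each.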

How the results depend on the processing

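Within set A (15 genes called) the count was 2 with the replicate block, 2976 with array weights, 5 with control tumours 2 and 5 only and 28 with the IRS4-high state as covariate. Within set B (3 genes) it was 13 after quantile normalization, 7 after cyclic loess, 7 with low-signal genes left out, 1 with the replicate block, 13 with an intensity trend and robust prior, 7445 with array weights and 17 with the IRS4 covariate. The difference between sets gave 0 genes except 1 with array weights. SHP2 miR1 against SHP2 miR2 within set B (1730) gave 1134 after loess, 1 with the replicate block and 4718 with array weights. SHP2 miR1 of set A against SHP2 miR2 (7312) gave 4792 after quantile normalization, 4511 after loess and 3938 with the replicate block. The estimation of the array weights did not converge, so those counts are of little use. The cause of the other changes was not tested.

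The PTPN11 change in set B was -1.41 with the replicate block, and its limma adjusted p was 0.248; all other alternatives kept PTPN11 past the threshold in both sets. The deviations of same-numbered tumours from their group means were weakly correlated (r of -0.07, 0.11 and 0.04 in set A, 0.13 and 0.09 in set B). Each group mean rests on few tumours, so these values cannot decide whether the numbers pair the tumours.

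Leaving out 1 tumour at a time gave PTPN11 changes of -1.595 to -1.37 (set A) and -1.51 to -1.39 (set B). The counts were 1 to 1394 within set A, 1 to 763 within set B, 0 to 0 for the difference, 621 to 3604 within set B against SHP2 miR2 and 4342 to 8653 for set A against SHP2 miR2. The 5 genes apart by at least 1 became 5 to 8, and 576 at a minimum of 0.5. With low-signal genes left out 2741 were higher in set A and 1337 in set B. The larger number of genes higher in set A (2885 against 2457 in set B) turned without SHP2 miR1 tumour 3, to 3289 and 3419. The PTPN11 change kept its sign in every alternative in both sets. The number of arrays limits what small differences can be seen.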
